A study of Mus musculus with 24 samples.

Results

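The 10 genes described here mark veins, lymphatic vessels and endothelium that clears material from the blood: Nr2f2, Ephb4, Nrp2, Flt4, Aplnr, Emcn, Lyve1, Stab1, Stab2 and Prox1. They were chosen by name, and 10 of 10 were found once each among the 29716 genes of the count table. RNA-seq was measured in 24 libraries of C57BL/6J mouse embryos at stage E10.5, in 6 groups of 4 replicates. Embryos were injected into the heart with anti-human IgG, the control, or with an antibody against Dll4, and were then cultured for 5 h at 37 °C and 5% CO2 with the same antibody at 5 µg/ml, IL-3 at 10 ng/ml and hydrocortisone at 10 µM, so both arms shared the culture and its additives. CD31+ cells of 3 sorted populations were taken from each arm: Kit+ CD45-, Kit+ CD45+, and Kit- CD41+ CD45- (below, Kit- CD41+ cells). CD31 is a surface protein of endothelium and of several blood cells, Kit is a receptor of haematopoietic progenitors and some endothelium, CD41 marks megakaryocytes and early blood progenitors, and CD45 marks committed blood cells. The labels do not give the number of embryos behind a library, so the p-values reflect only how far these samples spread, which may in part be technical.

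Endothelial cells take on arterial, venous or lymphatic identity early in development. Dll4 is a ligand of Notch receptors on arterial endothelium, and Notch signalling favours arterial over venous fate, while the nuclear receptor encoded by Nr2f2 restrains Notch signalling in veins. Lymphatic endothelium arises largely from veins, where Prox1 is switched on in cells that express Nr2f2, and the receptor encoded by Flt4 then guides their outgrowth. Stab1, Stab2 and Lyve1 encode receptors of sinusoidal and lymphatic endothelium that bind and take up ligands such as hyaluronan and modified proteins, and Stab1 and Lyve1 are also well known in tissue macrophages.

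The libraries held 8718351 to 11379830 counts, and levels are given as CPM, a count over the library total scaled with TMM factors. The sorting markers followed the labels under IgG: in the order Kit+ CD45-, Kit+ CD45+, Kit- CD41+, mean CPM of Kit were 37.8, 60.6 and 3.84, those of Itga2b (CD41) 58.5, 14.5 and 539, and those of Ptprc (CD45) 0.81, 82.1 and 0. Markers of other cells also differed between the populations. Embryonic and adult globins took 16.8% to 49.3% of the counts in Kit+ CD45- libraries, 4.17% to 14.1% in Kit- CD41+ libraries and at most 0.0226% in Kit+ CD45+ libraries. The 13 macrophage markers summed to 38.9 to 119 CPM in Kit+ CD45- libraries and to 634 to 866 CPM in Kit- CD41+ libraries, mostly from Fcer1g, which platelets also express (at least 550 CPM there). In Kit+ CD45+ libraries they summed to 1072 CPM or more, except in IgG replicate 1, where the sum was 271 CPM. Platelet markers summed to at least 17039 CPM in Kit- CD41+ libraries and to at most 3037 CPM elsewhere. As a measure of endothelial RNA, the mean log2 CPM of 15 pan-endothelial genes was 4.50 to 6.70 in the libraries of the Kit+ populations and 2.21 to 3.56 in Kit- CD41+ libraries.

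The genes lie on 8 mouse chromosomes (build mm10). Nr2f2 is at chr7:70351944-70366735 and Lyve1 at chr7:110850607-110863239, Nrp2 at chr1:62703285-62818695 and Prox1 at chr1:190118035-190170714, Ephb4 at chr5:137350109-137378669, Flt4 at chr11:49609263-49652739, Aplnr at chr2:85136225-85139923, Emcn at chr3:137341067-137432185, Stab1 at chr14:31139013-31168641 and Stab2 at chr10:86841198-87008025. All are annotated as protein-coding. Exons of 5 of them overlap another gene on the other strand: Nr2f2 shares 643 bases with B130024G19Rik, Stab2 shares 141 with Gm16268, Prox1 shares 133 with Prox1os, Stab1 shares 112 with Nt5dc2 and Ephb4 shares 33 with Zan. The sources used here do not say whether reads were counted by strand, so reads in those stretches could belong to either gene. Over all libraries Prox1os had 105 counts beside 939 for Prox1, and B130024G19Rik had 484 beside 3529 for Nr2f2. Nt5dc2 had 86699 beside 15395 for Stab1, while Zan had 73 beside 2400 for Ephb4 and Gm16268 had 5 beside 2404 for Stab2.

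Promoter windows of 300 bases, from 250 bases before to 50 bases after a start site, were taken from RefSeq (GRCm38.p6) for 8 of the 10 genes; Aplnr and Lyve1 had none in the table used. The windows of Emcn and Flt4 are shown because these genes had wide differences between the sorted populations, and those of the paralogs Stab1 and Stab2 because the first had narrow and the second wide differences. Each is written 5′ to 3′ on the gene's strand, and capitals mark a motif found by an exact search of both strands.
Emcn, chr3:137340828-137341127, + strand: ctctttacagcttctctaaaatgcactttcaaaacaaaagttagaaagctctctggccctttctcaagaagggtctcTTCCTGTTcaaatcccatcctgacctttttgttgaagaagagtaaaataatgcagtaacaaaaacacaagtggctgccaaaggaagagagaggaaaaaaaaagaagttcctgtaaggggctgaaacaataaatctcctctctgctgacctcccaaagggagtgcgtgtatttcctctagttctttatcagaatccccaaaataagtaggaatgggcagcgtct
Flt4, chr11:49609429-49609728, + strand: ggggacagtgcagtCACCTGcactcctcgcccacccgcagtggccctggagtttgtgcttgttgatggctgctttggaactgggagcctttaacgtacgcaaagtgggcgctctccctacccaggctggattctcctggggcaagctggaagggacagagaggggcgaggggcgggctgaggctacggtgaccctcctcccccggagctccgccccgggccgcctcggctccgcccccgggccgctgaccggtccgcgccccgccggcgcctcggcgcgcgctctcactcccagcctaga
Stab1, chr14:31168592-31168891, - strand: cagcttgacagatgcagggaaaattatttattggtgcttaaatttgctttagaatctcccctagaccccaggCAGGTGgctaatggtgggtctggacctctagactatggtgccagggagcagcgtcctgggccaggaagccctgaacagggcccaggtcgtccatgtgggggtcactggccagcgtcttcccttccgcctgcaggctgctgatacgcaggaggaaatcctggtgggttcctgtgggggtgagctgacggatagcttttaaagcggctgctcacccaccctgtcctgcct
Stab2, chr10:87007893-87008192, - strand: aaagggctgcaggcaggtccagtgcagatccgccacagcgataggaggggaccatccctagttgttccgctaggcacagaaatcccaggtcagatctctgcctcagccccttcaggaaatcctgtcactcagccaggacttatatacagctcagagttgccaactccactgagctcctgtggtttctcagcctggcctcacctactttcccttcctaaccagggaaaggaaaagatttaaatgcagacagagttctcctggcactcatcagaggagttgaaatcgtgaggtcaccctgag
The Emcn window holds TTCCTGTT, the reverse complement of the FOX:ETS composite motif AACAGGAA, which binds a pair of forkhead and ETS factors in endothelial enhancers and occurs in 2.645% of the 32851 RefSeq windows. The windows of Flt4 and Stab1 hold the E-box CACCTG or its reverse complement CAGGTG, found in 20.212% of windows, and the Stab2 window holds no capitals because none of the searched motifs is in it. Base composition differed as well: the Flt4 window was 70.3% GC with 26 CpG, the Emcn window 41.0% GC with 2, the Stab1 window 57.3% with 7 and the Stab2 window 53.0% with 4, while the median of all windows was 52.7% GC with 7 CpG. The other motifs searched were the RBPJ core TGGGAA, in 25.561% of windows, ACAAAG, bound by SOX factors, in 18.712%, CCGGAA, bound by ETS factors, in 14.898%, and AGATAA, bound by GATA factors, in 11.178%. RBPJ and SOX matches occurred in 1 of the 2 Prox1 windows, the letters of the last pair occurred in none of the 9 windows of these genes, and the 6 motifs were picked after the expression values were known.

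All 10 genes had higher mean CPM in both Kit+ populations than in Kit- CD41+ cells under IgG, by widely different amounts. Against Kit- CD41+ cells, 8 of the 10 rose in Kit+ CD45- cells and 9 of 10 in Kit+ CD45+ cells at an adjusted p under 0.05 (edgeR), and no gene fell. Of the 15618 genes tested, 14% rose in the first of these comparisons and 19.7% in the second. In CPM, 8 genes did not overlap between the groups in each comparison (not Lyve1 and Prox1), beside 13.1% and 19.3% of all genes higher without overlap. The median log2 fold change of the 10 genes was 2.80 and 3.63, beside 0.06 and 0.05 over all genes tested. All 10 passed the filter on low counts, which judged a gene over all groups, so a gene high in only some groups also passed. With the globin level as a covariate, the Kit+ CD45+ comparison kept a call for 1 of the 10 genes, beside 519 of all genes. Globin shares, though, did not overlap between these populations and cannot be told apart from them. In these bulk libraries fewer cells that express a gene and less RNA per cell cannot be told apart.

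**Figure D1:**
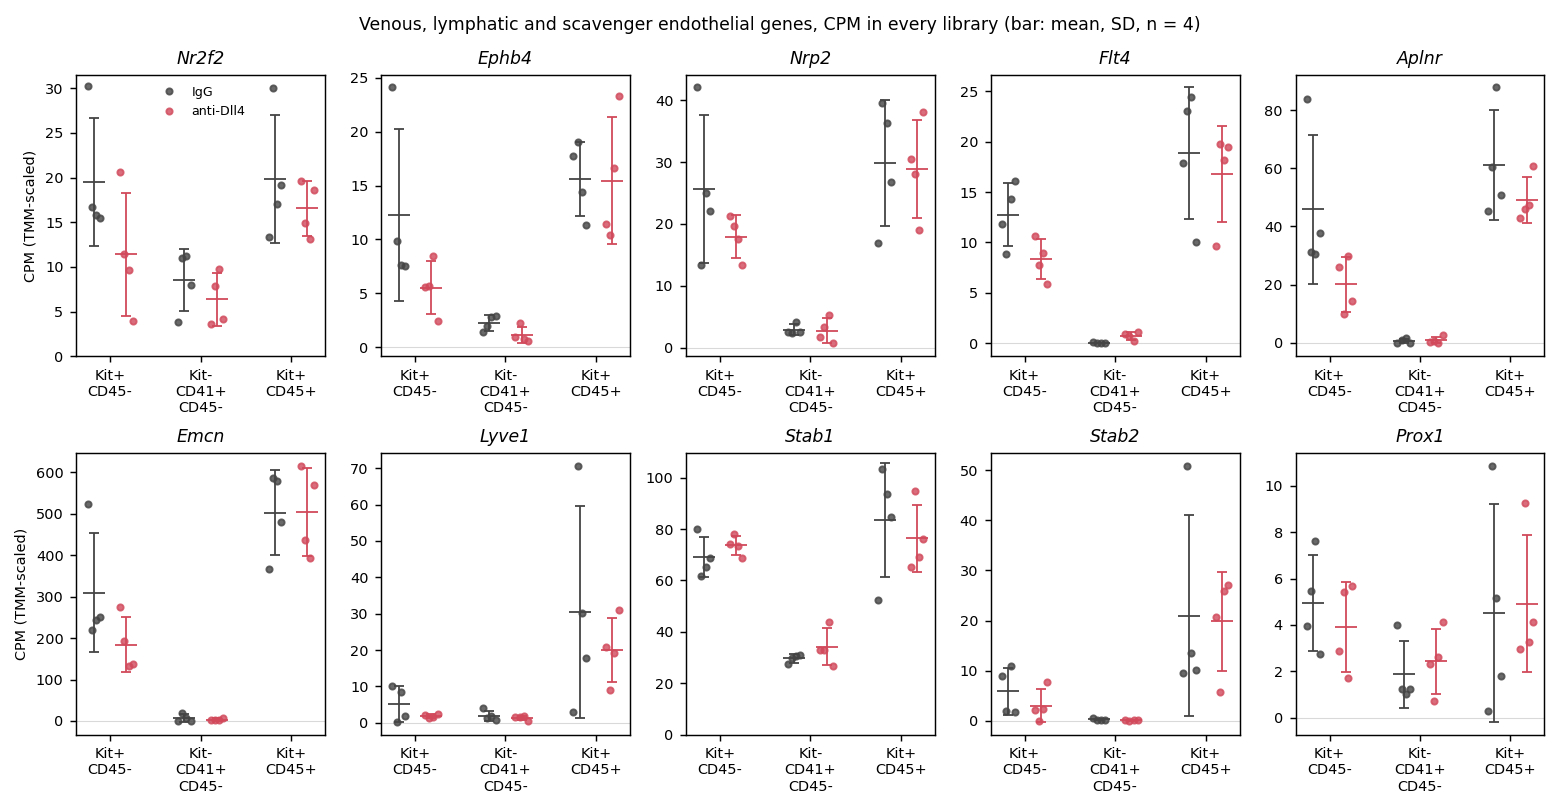
CPM (vertical axes, TMM-scaled, each panel with its own range) of the 10 genes in each library of the 3 sorted populations under IgG (grey) and anti-Dll4 (red). Points are libraries in order of replicate number, and bars are the mean and SD of 4; most genes are near 0 in Kit- CD41+ cells, while Stab1 and Nr2f2 are not.

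Among the venous genes, Emcn, which encodes the sialomucin endomucin of venous and capillary endothelium, had the highest level per length. Under IgG it had 523, 220, 243 and 251 CPM in the 4 Kit+ CD45- libraries, 0, 19.5, 8.20 and 0.776 in Kit- CD41+ cells and 367, 586, 579 and 479 in Kit+ CD45+ cells. Every Kit+ library was above every Kit- CD41+ library, and within the Kit- CD41+ group the 2 libraries with most Emcn were also those with the highest pan-endothelial score (3.56 and 3.23, against 2.46 and 2.21). The part of endothelial RNA in that spread was not tested. The log2 fold change was 5.42 (SE 0.73, adjusted p = 4.45e-06) for Kit+ CD45- and 6.12 (SE 0.75, adjusted p = 6.34e-07) for Kit+ CD45+ cells.

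Aplnr, the apelin receptor, which is expressed in sprouting and venous endothelium, showed the same order of groups. Its CPM under IgG were 84.0, 31.3, 30.4 and 37.7 in the Kit+ CD45- group, 0, 1.06, 1.5 and 0 in Kit- CD41+ cells and 45.3, 60.3, 87.9 and 50.9 in Kit+ CD45+ cells. The same 2 Kit- CD41+ libraries that held most Emcn held all 27 Aplnr counts of that group. Log2 fold changes against Kit- CD41+ cells were 6.13 (SE 0.72, adjusted p = 7.06e-07) and 6.54 (SE 0.72, adjusted p = 1.39e-07).

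Ephb4, the venous receptor for the arterial ligand ephrin-B2, had 24.1, 9.83, 7.61 and 7.54 CPM in the Kit+ CD45- group under IgG, 1.37, 1.95, 2.80 and 2.88 in Kit- CD41+ cells and 17.7, 19.0, 14.4 and 11.4 in Kit+ CD45+ cells. The Kit+ libraries again lay above all Kit- CD41+ libraries, with log2 fold changes of 2.46 (SE 0.45, adjusted p = 0.000181) and 2.80 (SE 0.45, adjusted p = 2.54e-05). Nrp2, a co-receptor for class 3 semaphorins and VEGF-C on venous and lymphatic endothelium, ranged from 13.4 to 42.1 CPM, from 2.39 to 4.201 and from 16.9 to 39.5, in the same order. Its log2 fold changes were 3.13 (SE 0.43) and 3.35 (SE 0.43), also without overlap. Nr2f2, the nuclear receptor COUP-TFII that sets venous identity, differed least of the venous genes. It had 15.5 to 30.2 CPM in the Kit+ CD45- group, 3.84 to 11.2 in Kit- CD41+ cells and 13.3 to 29.99 in Kit+ CD45+ cells under IgG. Its log2 fold changes of 1.20 (SE 0.41, adjusted p = 0.0288) and 1.22 (SE 0.40, adjusted p = 0.0197) each lost the call when single libraries were left out. For Kit+ CD45- cells the adjusted p was 0.126 without the Kit+ CD45- replicate 1, 0.106 without the Kit- CD41+ replicate 1 and 0.0658 without the Kit- CD41+ replicate 4. For Kit+ CD45+ cells it was 0.0852 without the Kit+ CD45+ replicate 2 and 0.0728 without the Kit- CD41+ replicate 1.

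The lymphatic genes differed from each other. Flt4, which encodes VEGFR-3, the receptor for VEGF-C and VEGF-D, was close to silent in Kit- CD41+ cells under IgG, with 1, 0, 0 and 0 counts in libraries of at least 8718351 counts. It had 11.8, 8.88, 14.3 and 16.1 CPM in the Kit+ CD45- group and 17.9, 23.0, 24.5 and 10.0 in Kit+ CD45+ cells. The summed counts were 449 against 1 and 1008 against 1, and the ratios per scaled library total were 538 (95% interval 96.1 to 21300.1) and 805 (144 to 31832.6), where the exact interval covers counting error only. These were the widest ratios among the 10 genes, and both comparisons passed the test (adjusted p = 1.48e-09 and 9.19e-11). Prox1, the transcription factor that sets lymphatic fate, was low everywhere and passed in neither comparison. Under IgG it had 3.96, 5.46, 7.61 and 2.77 CPM in the Kit+ CD45- group, 4.01, 1.24, 1.00 and 1.22 in Kit- CD41+ cells and 0.266, 10.9, 5.17 and 1.79 in Kit+ CD45+ cells. The groups overlapped, with log2 fold changes of 1.39 (SE 0.72, adjusted p = 0.165) and 1.26 (SE 0.72, adjusted p = 0.179). Without the Kit+ CD45+ replicate 1, which had 4 counts, the second of these became 1.66 (adjusted p = 0.0463).

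The scavenger receptor genes differed: Stab1 was well above 0 in all libraries, Stab2 was counted almost only in Kit+ cells, and Lyve1 was low in Kit- CD41+ cells but overlapped Kit+ CD45- cells. Stab1, which encodes stabilin-1, had 79.9, 61.9, 65.4 and 68.9 CPM in the Kit+ CD45- group under IgG, 27.3, 29.8, 30.5 and 30.9 in Kit- CD41+ cells and 52.6, 104, 93.8 and 84.6 in Kit+ CD45+ cells. Its lowest value in any of the 24 libraries was 26.7 CPM, above the lowest of each of the other 9 genes, and all Kit- CD41+ libraries under IgG lay below all Kit+ libraries. Its log2 fold changes were 1.22 (SE 0.17, adjusted p = 1.10e-05) and 1.5 (SE 0.18, adjusted p = 3.47e-07). Some Stab1 counts could belong to Nt5dc2 in the 112 bases that both share, since the strand setting is not known. Stab2, which encodes stabilin-2, a hyaluronan-clearing receptor of sinusoids, had 8.84, 1.91, 10.97 and 1.63 CPM in the Kit+ CD45- group, 0.513, 0.177, 0.100 and 0.222 in Kit- CD41+ cells and 9.43, 50.9, 13.5 and 10.1 in Kit+ CD45+ cells. The Kit- CD41+ libraries held 1 to 6 Stab2 counts each, and all Kit+ libraries were above them, with log2 fold changes of 4.45 (SE 0.98, adjusted p = 0.00135) and 6.28 (SE 0.99, adjusted p = 2.19e-05). Lyve1, a hyaluronan receptor of lymphatic endothelium and of some macrophages, had 10.1, 0.273, 8.51 and 1.76 CPM in the Kit+ CD45- group, 3.93, 1.41, 1.80 and 0.776 in Kit- CD41+ cells and 2.99, 70.7, 30.3 and 17.9 in Kit+ CD45+ cells. It rose in Kit+ CD45+ cells against Kit- CD41+ cells (3.92, SE 0.79, adjusted p = 0.000392), and its value for Kit+ CD45- cells was 1.38 (SE 0.76, adjusted p = 0.191).

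The 2 Kit+ populations were closer to each other. Under IgG 1 of the 10 genes, Lyve1, rose in Kit+ CD45+ against Kit+ CD45- cells (2.53, SE 0.73, adjusted p = 0.0169), while 10% of all genes tested rose. Lyve1 overlapped between the groups, since the Kit+ CD45+ replicate 1 had 2.99 CPM. The call was lost without the Kit+ CD45+ replicate 2, which had 70.7 CPM (1.70, adjusted p = 0.116), and without the Kit+ CD45- replicate 4 (2.25, adjusted p = 0.0579). Stab2 had 1.83 (SE 0.73, adjusted p = 0.0839), and the other 8 genes lay between -0.13 for Prox1 and 0.70 for Emcn, with a median over the 10 genes of 0.38 beside 0.04 over all genes. Leaving out the Kit+ CD45+ replicate 1 added a call for Stab1 (0.45, adjusted p = 0.0438).

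Under anti-Dll4 the contrasts against Kit- CD41+ cells were similar in number, with 7 genes higher in Kit+ CD45- cells, where 14.7% of all genes rose, and 9 higher in Kit+ CD45+ cells, where 20.4% rose. The first count lacked Nr2f2 (0.85, SE 0.41, adjusted p = 0.126), Lyve1 (0.39, SE 0.87) and Prox1 (0.67, SE 0.72), and the second lacked Prox1 (1.02, SE 0.71). For Flt4 the fitted log2 fold changes were 3.5 (SE 0.41) and 4.50 (SE 0.41), now against a group with 28 counts. Between the Kit+ populations 4 genes rose in Kit+ CD45+ cells, where 16.6% of all genes rose: Lyve1 (3.5, SE 0.81, adjusted p = 0.00226), Stab2 (2.80, SE 0.79, adjusted p = 0.00964), Ephb4 (1.46, SE 0.42, adjusted p = 0.0116) and Flt4 (1.00, SE 0.34, adjusted p = 0.0272). Ephb4 lost the call without the Kit+ CD45+ replicate 4 (adjusted p = 0.0545). Flt4 lost it without the Kit+ CD45- replicates 2 or 4 or the Kit+ CD45+ replicates 2, 3 or 4, one at a time (adjusted p = 0.0578 to 0.0960). Stab1 had 0.05 (SE 0.17). The pan-endothelial genes differed in the same direction, with 2 of 15 higher in Kit+ CD45+ cells under IgG and 11 of 15 under anti-Dll4. With their score as a covariate, a setting chosen after seeing the data, none of the 10 genes was called between the Kit+ populations under either antibody. Calls over all genes, in either direction, went from 2998 to 1963 under IgG and from 4560 to 1071 under anti-Dll4 in that setting. The log2 fold changes were then 2.11 for Lyve1 under IgG (adjusted p = 0.0888), and under anti-Dll4 2.50 for Lyve1 (adjusted p = 0.217), 2.73 for Stab2 (adjusted p = 0.258), 0.46 for Ephb4 and -0.16 for Flt4. Under anti-Dll4 the score did not overlap between the Kit+ populations and cannot be told apart from them. These values therefore do not separate the genes by endothelial RNA. A test of whether the antibody effect differed between populations called none of the 10 genes, so the 1 call under IgG and the 4 under anti-Dll4 do not show a difference between the arms.

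**Figure D2:**
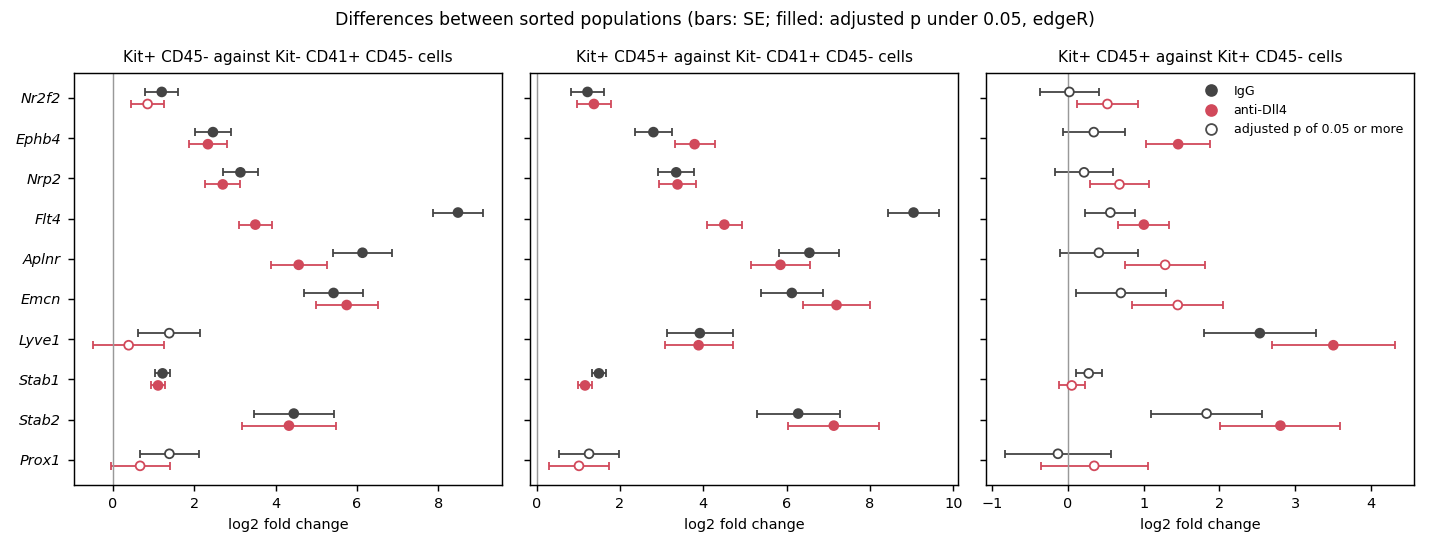
Log2 fold change (horizontal axes) of the 10 genes between pairs of sorted populations, under IgG (grey) and anti-Dll4 (red), with SE bars; filled points passed an adjusted p of 0.05. Against Kit- CD41+ cells the points run from 0.39 for Lyve1 (Kit+ CD45- cells, anti-Dll4) to 9.04 for Flt4 (Kit+ CD45+ cells, IgG), while between the Kit+ populations Lyve1 and Stab2 lie farthest from 0.

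Ranked by CPM per kb of the longest transcript, which allows levels of different genes to be compared, Emcn led in Kit+ CD45- cells under IgG with 87.8 ± 40.7 (SD, n = 4) and did not overlap the next gene. Aplnr followed with 12.4 ± 6.92 and Stab1 with 8.63 ± 0.98, and these overlapped. Nr2f2 (4.62 ± 1.69), Nrp2 (3.81 ± 1.79) and Ephb4 (2.83 ± 1.84) came next, and at the end stood Flt4 (2.04 ± 0.50), Lyve1 (1.79 ± 1.69), Stab2 (0.71 ± 0.58) and Prox1 (0.63 ± 0.26). The choice of length mattered below the first 3 ranks: per kb of all exons joined, Ephb4 (2.65) stood above Nr2f2 (2.26) and Nrp2 (2.16), and Lyve1 (1.77) above Flt4 (1.55), each overlapping the next gene in that order. Emcn was then at 57.1, and Aplnr (12.4) no longer overlapped Stab1 (6.71). The order in Kit- CD41+ cells was different, with Stab1 first at 3.71 ± 0.20, then Emcn (2.02 ± 2.57) and Nr2f2 (2.02 ± 0.82), and Flt4 last at 0.0034 ± 0.0068. In Kit+ CD45+ cells Emcn led again, at 143 ± 29.2, followed by Aplnr (16.5 ± 5.11) and Lyve1 (10.53 ± 10.04).

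Anti-Dll4 changed none of the 10 genes at an adjusted p under 0.05 in any of the 3 populations, by edgeR or by DESeq2. Over all genes tested with edgeR, the calls were 0% in Kit+ CD45- cells, 0% in Kit- CD41+ cells and 0.0064% in Kit+ CD45+ cells. At an unadjusted p under 0.05 there were 2 of the 10 genes in Kit+ CD45- cells (Ephb4 and Aplnr), 2 in Kit- CD41+ cells (Ephb4 and Flt4) and 0 in Kit+ CD45+ cells. Among all genes tested, 11.1%, 2.79% and 2.9% had such a p in these populations. The mean effect over the 3 populations also gave no call among the 10 genes or among all genes (0%), with 3 at an unadjusted p under 0.05 (Nr2f2, Ephb4 and Flt4), beside 8.39% of all genes. The test of different effects between populations called 0.0256% of all genes and none of the 10, with Flt4 at an unadjusted p under 0.05, as were 4.04% of all genes. Dll4 itself had 12.1 ± 7.23 CPM under IgG and 6.35 ± 5.49 under anti-Dll4 in the Kit+ CD45- group, 0.20 ± 0.34 and 0.08 ± 0.10 in Kit- CD41+ cells, and 15.3 ± 5.49 and 10.6 ± 4.40 in Kit+ CD45+ cells (SD, n = 4 each); the antibody acts on the protein, so this is no check of its action. None of the Notch target genes listed for comparison (0 of 6) passed in any population either, and Hes1 had an unadjusted p under 0.05 in all 3. Hes1, a repressor that Notch induces, had 63.7 ± 20.9 CPM under IgG and 29.1 ± 2.65 under anti-Dll4 in the Kit+ CD45- group, 17.9 ± 10.0 and 7.21 ± 1.51 in Kit- CD41+ cells, and 81.3 ± 16.1 and 49.0 ± 5.12 in Kit+ CD45+ cells (SD, n = 4 each).

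**Figure D3:**
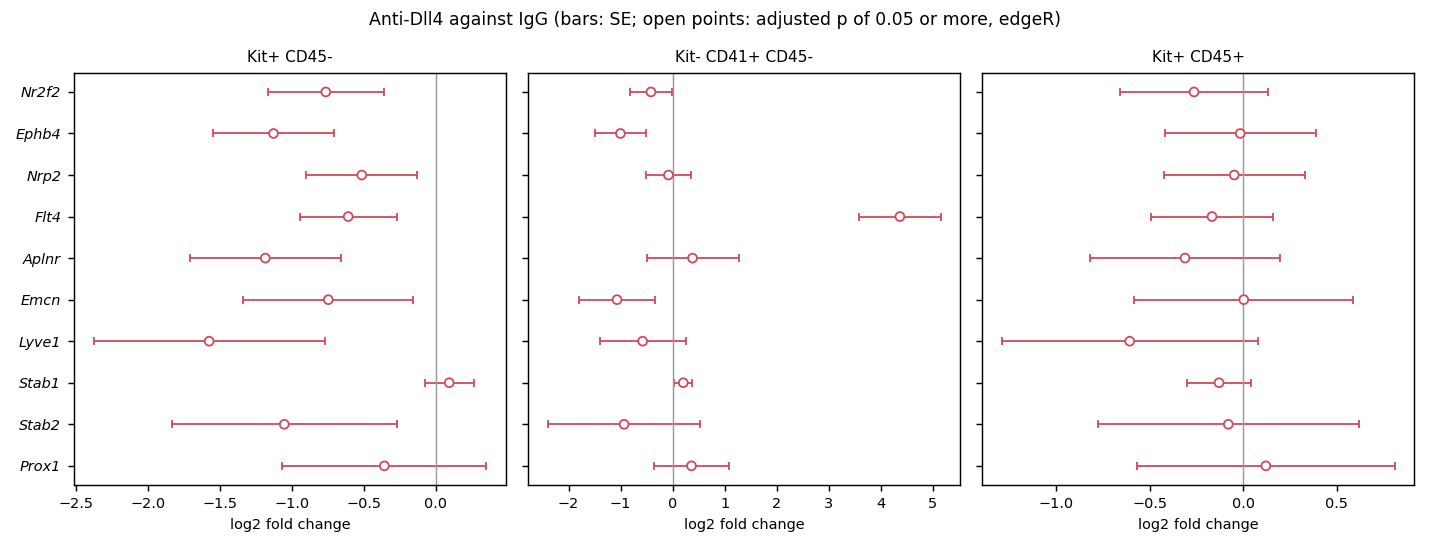
Log2 fold change of anti-Dll4 against IgG (horizontal axes, with its own range in each panel) for the 10 genes in the 3 sorted populations, with SE bars. All points are open because none passed an adjusted p of 0.05; in Kit+ CD45- cells 9 of 10 lie below 0, and in Kit- CD41+ cells Flt4 stands apart at 4.37.

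In Kit+ CD45- cells 9 of the 10 fold changes were negative, with a median of -0.76 beside -0.03 over all genes. Aplnr had 26.1, 9.94, 29.9 and 14.4 CPM under anti-Dll4, all below the lowest IgG library (30.4), and was the only one of the 10 genes whose antibody groups did not overlap there; 2.23% of all genes were lower without overlap. Its log2 fold change was -1.18 (SE 0.52, adjusted p = 0.417). Ephb4 had 5.59, 5.66, 8.48 and 2.40 CPM under anti-Dll4 (-1.13, SE 0.42, adjusted p = 0.365), and Emcn had 274, 192, 133 and 138 CPM (-0.75, SE 0.59, adjusted p = 0.633). For Lyve1 the value was -1.57 (SE 0.80), for Stab2 -1.05 (SE 0.78), for Nr2f2 -0.76 (SE 0.40), for Flt4 -0.61 (SE 0.34), for Nrp2 -0.51 (SE 0.38) and for Prox1 -0.36 (SE 0.71). Stab1 alone was above 0, at 0.09 (SE 0.17).

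Leaving out the IgG replicate 1 of Kit+ CD45- cells moved these values. That library had the highest CPM of its group for 7 of the 10 genes (Nr2f2, Ephb4, Nrp2, Aplnr, Emcn, Lyve1 and Stab1), together with the lowest globin share (16.8%, others 27.4% to 33.7%) and the highest pan-endothelial score (6.49, others 5.41 to 5.72). Without it the log2 fold changes were -0.71 for Aplnr, -0.56 for Ephb4, -0.37 for Emcn and -1.03 for Lyve1. Across all 8 Kit+ CD45- libraries, the pan-endothelial score ran from 5.41 to 6.49 under IgG and from 4.50 to 5.41 under anti-Dll4. The median fold change of the 15 pan-endothelial genes was -0.77, of the 14 arterial genes -0.78 and of the 10 other venous genes -0.63. That venous list includes Notch4, Smarca4 and Tek, which are not specific to veins. With the pan-endothelial score as a covariate, chosen after seeing the data, Emcn was at 0.54 and Flt4 at 0.04. The other genes kept their sign or changed it by no more than their SE, and none was called. The score ranges of the antibodies only met near 5.41, so score and antibody can hardly be told apart. The highest globin share of this population lay in an anti-Dll4 library. Over these 8 libraries, Pearson's r of each gene's log2 CPM with the mean of 10 red cell markers ran from -0.90 (Ephb4) to -0.22 (Stab2). Prox1 alone was above 0, at 0.46. With the globin level as a covariate, no sign changed by more than the SE and none was called. The part of endothelial and red cell RNA in the lower values of the 10 genes was not itself tested.

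Set against the pan-endothelial score of the same library, the venous genes Nr2f2, Ephb4, Aplnr and Emcn overlapped between the antibodies in Kit+ CD45- cells. Emcn stood 2.34 ± 0.14 log2 units above the score under IgG and 2.43 ± 0.31 under anti-Dll4 (SD, n = 4), and Ephb4 stood at -2.37 ± 0.45 and -2.64 ± 0.51. Stab1 stood at 0.27 ± 0.31 under IgG and at 1.18 ± 0.33 under anti-Dll4, and Nrp2 at -1.26 ± 0.27 and -0.87 ± 0.10, both without overlap. On this scale 16.3% of all genes were higher without overlap, as the score itself was lower under anti-Dll4, so 2 of 10 is near the background. On the CPM scale Stab1 had 74.4, 78.0, 73.4 and 68.8 under anti-Dll4, inside the IgG range.

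In Kit- CD41+ cells Flt4 stood apart. It had 9, 7, 2 and 10 counts under anti-Dll4 (0.902, 0.704, 0.209 and 1.11 CPM) against 1, 0, 0 and 0 under IgG, so the groups did not overlap; 1.07% of all genes were higher without overlap. The ratio of summed counts per scaled library total was 30.6 (95% interval 5.05 to 1250.04, counting error only), and the fitted log2 fold change, which depends on how zeros are handled, was 4.37 (SE 0.78, adjusted p = 0.0845). Of the 24 alternative settings, it passed only without the anti-Dll4 replicate 3 (adjusted p = 0.0248) and with the pan-endothelial score as a covariate (adjusted p = 0.0199). That replicate had the fewest Flt4 counts of its arm, and the covariate was chosen after seeing the data. All 4 values under anti-Dll4 stayed below the lowest Kit+ library (5.90 CPM). The pan-endothelial score was 2.26 to 2.80 under anti-Dll4 and 2.21 to 3.56 under IgG. The source of the Flt4 counts in these libraries was not tested. Of the other genes, Ephb4 had 0.902, 2.21, 0.730 and 0.555 CPM under anti-Dll4 (-1.0, SE 0.49), and Emcn had 2.11, 2.31, 1.77 and 7.66 CPM (-1.07, SE 0.73). The remaining 7 lay between -0.93 for Stab2 and 0.38 for Aplnr, each with overlap.

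In Kit+ CD45+ cells the antibody groups overlapped for all 10 genes, while 1.8% of all genes did not overlap, and the log2 fold changes ran from -0.61 (SE 0.68) for Lyve1 to 0.12 (SE 0.69) for Prox1. Emcn had 615, 436, 393 and 569 CPM under anti-Dll4 (0.00, SE 0.59), and Stab1 had 65.2, 94.9, 69.3 and 76.3 CPM (-0.13, SE 0.17). Libraries within each arm spread widely for Lyve1, which had 20.8, 9.12, 19.2 and 30.9 CPM under anti-Dll4, and for Stab2, which had 20.7, 5.64, 25.9 and 27.2. Without the IgG replicate 2, the library with most Lyve1 and Stab2, the fold changes of both were above 0, at 0.23 and 0.85, and that of Prox1 was 1.03 (adjusted p = 1 for each).

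The IgG replicate 1 of Kit+ CD45+ cells was low in macrophage markers and in several of the 10 genes at once. Its mean log2 CPM of the 13 macrophage markers was 3.09, beside 5.44 to 6.97 in the other 7 libraries. It had the lowest value of the 8 libraries for Lyve1 (2.99 CPM), Stab1 (52.6), Prox1 (0.266), Nrp2 (16.9) and Emcn (367). Stab2 was not lowest there, with 9.43 CPM, and neither was Ephb4, at 17.7 CPM, or Flt4, at 17.9 CPM, and its pan-endothelial score of 6.34 lay within the range of the other libraries (5.93 to 6.70). Among the other 7 libraries, the IgG replicate 2 and the anti-Dll4 replicate 2, with macrophage scores of 6.92 and 6.70, had the highest Stab1 (104 and 94.9 CPM) and the highest Prox1 (10.9 and 9.28 CPM). Lyve1 was highest of the 7 in the first of these (70.7 CPM) and lowest in the second (9.12 CPM). The IgG replicate 4, with the highest score (6.97), had the lowest Prox1 of the 7 (1.79 CPM). The part of macrophage RNA in the Lyve1, Stab1 and Prox1 levels of Kit+ CD45+ cells was not tested. In Kit+ CD45- cells under IgG 5 of the 13 macrophage markers (C1qc, Adgre1, Fcgr1, Timd4 and Ctss) had no count in any library.

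**Figure D4:**
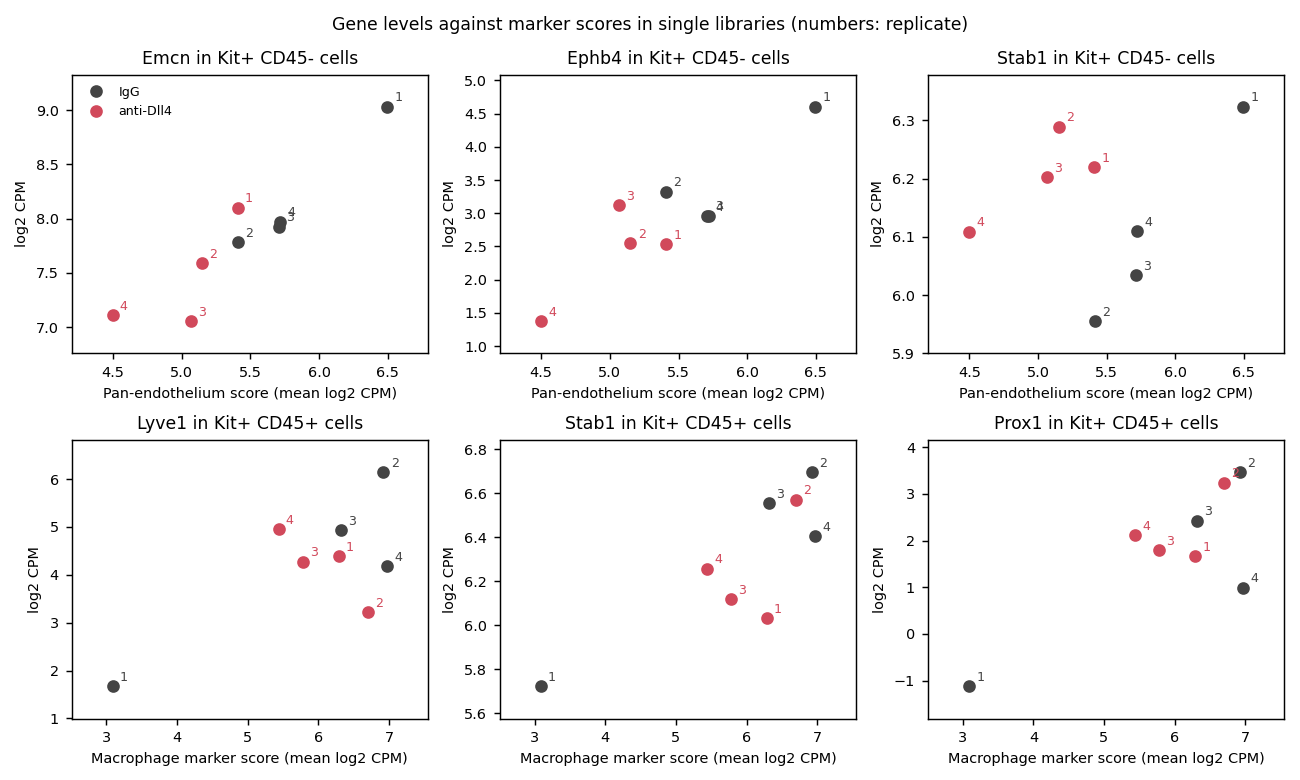
Log2 CPM of single genes (vertical axes) against marker scores (horizontal axes, mean log2 CPM of the marker list) in single libraries, IgG in grey and anti-Dll4 in red, labelled by replicate. In the upper row, Kit+ CD45- cells, Emcn and Ephb4 are highest in the IgG library with a pan-endothelial score of 6.49, while Stab1 under anti-Dll4 keeps its level at lower scores; in the lower row, Kit+ CD45+ cells, the IgG library with a macrophage score of 3.09 is lowest for Lyve1, Stab1 and Prox1.

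Other genes of the same systems, from lists chosen with earlier results of these data known, did not all follow the 10. In Kit+ CD45- against Kit- CD41+ cells under IgG, 14% of all genes tested rose and 13.8% fell, so counts such as 2 of 12 are near the background. Of the 10 other venous genes, 4 rose and 2 fell (median -0.14, beside 0.06 over all genes). Plvap, which encodes a protein of endothelial fenestrae, rose (3.33, SE 0.35), as did Notch4 (2.67, SE 0.39), while Vwf, which encodes the clotting factor stored in both endothelium and megakaryocytes, fell (-2.23, SE 0.27). Notch4 is a Notch receptor gene and not a venous marker. Tek, on the same list, is also among the pan-endothelial genes. Of the 12 other lymphatic genes tested, 5 rose and 2 fell (median 1.63). Sox18, a transcription factor that acts upstream of Prox1, rose by 5.76 (SE 0.55) and Clec14a by 5.79 (SE 0.72), and Mmrn1, which is shared with platelets, fell (-1.93, SE 0.22). Neither Sox18 nor Clec14a is specific to lymphatic endothelium. Of the 12 other scavenger receptor genes tested, 2 rose and 2 fell (median 0.64), among them Cd36 (3.37, SE 0.82), Clec4g (-3.58, SE 0.41) and Scarb1 (-1.05, SE 0.28). Of 13 ligands and partners of the receptors described here, 6 rose and 1 fell (median 1.05). The 3 with the smallest p were the semaphorin co-receptors Plxnd1 (2.77, SE 0.27) and Nrp1 (2.90, SE 0.36) and the EphB4 ligand Efnb2 (2.62, SE 0.36). For comparison, 10 of 14 arterial genes (median 2.72) and 12 of 15 pan-endothelial genes (median 2.28) rose and none fell, with Notch1 at 2.82 (SE 0.36) and Cdh5 at 5.73 (SE 0.54).

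The same lists in Kit+ CD45+ against Kit- CD41+ cells gave 4 higher and 2 lower for the venous genes, 7 and 3 for the lymphatic genes, 9 and 1 for the scavenger receptor genes and 7 and 2 for the ligands and partners. Over all genes tested, 19.7% rose and 17.5% fell. Dab2, an endocytic adaptor, rose by 6.25 (SE 0.69), Itga9, an integrin of lymphatic endothelium, by 3.92 (SE 0.46) and Kdr, the VEGF receptor that pairs with VEGFR-3, by 1.57 (SE 0.23). Clec4g of the scavenger receptor list fell (-6.72, SE 0.50), as did Vwf (-2.17, SE 0.27). Of the arterial genes 8 rose, with Acvrl1 at 5.83 (SE 0.73), and of the pan-endothelial genes 13 rose.

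Between the Kit+ populations under IgG, the scavenger receptor list gave 6 higher and 1 lower of 12 (median 2.25, beside 0.04 over all genes), while 10% of all genes tested rose and 9.18% fell. Cd68, a lysosomal protein abundant in macrophages, rose by 6.23 (SE 0.47), from 1.98 to 149 CPM, and the macrophage mannose receptor gene Mrc1 by 6.66 (SE 1.05), from 0.92 to 101 CPM, while Clec4g, a lectin gene of sinusoidal endothelium, fell (-3.14, SE 0.49). Cd68 and Mrc1 are also in the macrophage list. Other venous genes gave 2 higher, Dab2 (3.60, SE 0.59) and Selp (3.28, SE 0.72), and the lymphatic genes 2 higher and 2 lower, with Hhex (1.00, SE 0.22), Nfatc1 (1.08, SE 0.27) and Reln (-9.62, SE 1.5). The ligand list gave Vegfc higher (1.00, SE 0.34) and Sema3c lower (-3.08, SE 1.03). None of the 14 arterial genes passed by edgeR, and 0 had an unadjusted p under 0.05. Under anti-Dll4 against IgG, no gene of these 7 lists passed by edgeR in any population; of their 76 genes tested, 27 had an unadjusted p under 0.05 in Kit+ CD45- cells, 6 in Kit- CD41+ cells and 6 in Kit+ CD45+ cells, where the shares over all genes were 11.1%, 2.79% and 2.9%.

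Over the 24 libraries the 10 genes varied together to different degrees. Pearson's r of log2 CPM was 0.975 for Aplnr and Emcn, 0.948 for Nrp2 and Stab1 and 0.935 for Flt4 and Aplnr, and the lowest of the 45 pairs was Nr2f2 with Prox1 at 0.189. These libraries fall into 3 populations that share a sort and a globin level, and r includes the differences between populations. By the same measure the genes most like Aplnr were Ecscr (0.987), Elk3 (0.984) and Sparc (0.981), and those most like Emcn were Ecscr (0.983), Elk3 (0.981) and Cldn5 (0.981). Flt4 was most like Cd109 (0.953), Upp1 (0.95) and Cmtm8 (0.948), and Ephb4 like Rgl1 (0.965), Igfbp4 (0.965) and Nfib (0.963). Stab1 was most like Ivns1abp (0.956), Nrp2 (0.948) and Klhl4 (0.945), and Stab2 like Tnfrsf26 (0.930), Gimap4 (0.925) and Tfpi (0.912). Lyve1 was most like Ugt1a7c (0.893), Adam8 (0.883) and Themis2 (0.882), and Nr2f2 like Msrb3 (0.892), Trps1 (0.889) and Fbn2 (0.882). Prox1 had no close match, with Rasa4 first at 0.777. The genes named depend on the measure: of the 30 most similar genes, 3 for each of the 10, 21 were shared with a prior count of 0.5 and 6 with Spearman's rho.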

How the data were processed

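Counts per gene were the authors' deposited raw read counts, 1 column per library, for 29716 genes and 24 libraries. The authors' deposited log2 table equalled log2 of the count over a size factor plus 1 in each library, with size factors of 0.454 to 1.56, and was used for gene names and as a check, apart from 1 column that matched none of the samples. Per the labels' protocols, polyA RNA was amplified as cDNA before library preparation. The tools STAR, HTSeq, FastQC, DESeq2 and CASAVA 1.4 and the build mm10 are listed, per the submitters' processing notes, with no roles; settings and annotation release are not given here.

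Differences were tested with edgeR 4.0.16 (R 4.3.3) on the counts, with TMM factors, filterByExpr (minimum count 10), robust quasi-likelihood fits and 1 coefficient per group over 24 libraries (18 residual degrees of freedom). Benjamini-Hochberg adjustment ran over 15618 genes, with a threshold of 0.05, and the biological coefficient of variation was 0.343. The SE of a log2 fold change is its size over the square root of F. CPM are counts over the total times its TMM factor, log2 CPM use a prior count of 2, and scores average log2 CPM over the genes of a list. Low values are limited by counts, and 3 counts were taken as the floor. Total counts were similar across libraries but scaled totals were not, so that floor lies at a different CPM in different libraries. No libraries were identical, and the edgeR script was tested on simulated data.

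The 10 genes and the comparison lists were chosen with earlier results of these data known. Genes of the lists were named as the 3 at most with the smallest p among those past the threshold under IgG, a few of which are left out for brevity; the most similar genes are the 3 protein-coding genes with the highest r, and those of Nrp2 are not reported here. Alternatives covered DESeq2 1.42.0, other scaling factors and filters, removal of globin genes, covariates, a fold threshold, replicate blocks, only the groups compared and each library left out in turn.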

Additional observations from a re-analysis of the deposited data

Results flagged for a closer look

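In each group of 4 libraries the highest and lowest CPM of the 10 genes were compared with the others, and a library was picked where its gap to the nearest exceeded the share of the group's range that Dixon's 95% critical value allows. Chance alone gives about 1 in 20 for independent, normal values. CPM near 0 and several genes of 1 library are not such values, so that rate is only a rough guide. The rule held for 10 of 60 groups. Of these, 4 were the IgG replicate 1 of Kit+ CD45- cells, high for Nr2f2 (30.2 CPM, others 15.5 to 16.7), Ephb4 (24.1, others 7.54 to 9.83), Aplnr (84.0, others 30.4 to 37.7) and Emcn (523, others 220 to 251). Among Kit- CD41+ libraries, the IgG replicate 1 was high for Prox1 (4.01, others 1.00 to 1.24) and for Flt4 (0.0854, a single count, others at 0), the IgG replicate 3 for Nrp2 (4.201, others 2.39 to 2.56) and the anti-Dll4 replicate 4 for Emcn (7.66, others 1.77 to 2.31). Among Kit+ CD45+ libraries, the IgG replicate 2 was high for Stab2 (50.9, others 9.43 to 13.5) and the anti-Dll4 replicate 1 was low for Flt4 (9.67, others 18.2 to 19.8).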

How the results depend on the processing

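Of the 10 genes, the number called against Kit- CD41+ cells ranged, with 1 library or replicate number left out, from 7 to 8 (Kit+ CD45-, IgG), 6 to 8 (Kit+ CD45-, anti-Dll4), 8 to 10 (Kit+ CD45+, IgG) and 8 to 9 (Kit+ CD45+, anti-Dll4); between the Kit+ populations it ranged from 0 to 2 (IgG) and 2 to 6 (anti-Dll4). For the anti-Dll4 effect in Kit- CD41+ cells, and for its difference between populations, it ranged from 0 to 1, the call being Flt4 without the anti-Dll4 replicate 3, and for the other antibody tests it was 0 throughout. With the pan-endothelial score as a covariate, chosen after seeing the data, the effect in Kit- CD41+ cells and the difference each gave 1 call. Over all genes these tests then gave 1 and 4 calls. The comparisons between the Kit+ populations gave 0 and 0, beside 1963 (IgG) and 1071 (anti-Dll4) of all genes. Between them Flt4 was then at -0.16, Stab2 at 2.73 and Lyve1 at 2.50 under anti-Dll4, and Lyve1 at 2.11 under IgG. With globin as a covariate the counts were 1 (IgG) and 0 (anti-Dll4) for Kit+ CD45+ against Kit- CD41+ cells and 0 and 0 between the Kit+ populations. Over all genes the calls were then 519 and 462 in the first comparison and 0 and 0 in the second. That covariate turned the sign of these fold changes, none of them then called. Against Kit- CD41+ cells under IgG they were -1.26 for Ephb4, -3.54 for Lyve1 and -1.36 for Nr2f2, and under anti-Dll4 -0.73 for Ephb4, -4.27 for Lyve1, -1.42 for Nr2f2 and -0.18 for Stab1. Between the Kit+ populations they were -6.66 for Lyve1 under IgG, and under anti-Dll4 -6.20 for Lyve1, -3.78 for Ephb4, -1.52 for Flt4 and -0.90 for Stab2. A test against a 1.5-fold change left 2 calls between the Kit+ populations under anti-Dll4, beside 1954 of all genes. A fit of only the groups compared left 0 under IgG, beside 2122 of all genes, and gave 6 under anti-Dll4, beside 3294. The added calls were Aplnr (1.22, adjusted p = 0.0145) and Emcn (1.39, adjusted p = 0.00175), and the cause was not tested. A sign change between values of which neither was called was not counted as a reversal.

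Upper-quartile scaling moved the median of all genes from 0.06 to 0.16 (IgG) and from 0.07 to 0.21 (anti-Dll4) in Kit+ CD45- against Kit- CD41+ cells, and from 0.10 to -0.01 between the Kit+ populations under anti-Dll4. Genes higher and lower went from 2291 and 2381 to 3147 and 1986 in the anti-Dll4 contrast of Kit+ CD45- cells, and between the Kit+ populations from 1564 and 1434 to 1228 and 1707 (IgG) and from 2590 and 1970 to 2086 and 2425 (anti-Dll4). DESeq2 called 70, 2 and 13 of all genes under anti-Dll4 in Kit+ CD45-, Kit- CD41+ and Kit+ CD45+ cells, against 0, 0 and 1 by edgeR, and none of the 10. Replicate numbers did not pair the libraries: deviations of same-numbered libraries of 1 population correlated at -0.147 to 0.0999 over 12 pairs, 2 of which were best with their own number. The replicate block changed no call of the 10 genes, with 8 (Kit+ CD45-, IgG), 7 (Kit+ CD45-, anti-Dll4), 9 (Kit+ CD45+, IgG) and 9 (Kit+ CD45+, anti-Dll4) called against Kit- CD41+ cells. Across populations within an antibody the same numbers correlated at -0.0636 to 0.197 over 24 pairs, 6 over 0.1, and 16 of 24 were best with their own number. The column names of the counts also share a leading number within each of these 8 sets of 3 libraries. The labels do not say what a set shares, and the main fit had no term for it. Blocked by set, the counts against Kit- CD41+ cells were also 8, 7, 9 and 9, and between the Kit+ populations 1 (IgG) and 3 (anti-Dll4), where Flt4 lost its call (0.98, adjusted p = 0.0558).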
